A study of Mus musculus with 8 samples.

Results

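Urea cycle and periportal amino acid genes are described here in 8 mouse livers. They are Cps1, Otc, Ass1, Asl and Arg1, which encode the enzymes of the cycle, Nags, which encodes the enzyme that makes its activator, and Gls2, Hal, Sds and Uroc1, which encode enzymes of glutamine, histidine and serine breakdown. The members were named by symbol, and all 10 were found among the 25078 genes of the deposited counts. Liver RNA came from 3 male C57/BL6 mice whose genotype label reads Midn hemizygotes and whose titles read Het, here called het-labelled, and from 5 wild-type males of the same strain. Every mouse of both genotypes had eaten a diet high in fat, fructose and cholesterol for 25 weeks. The design text says that the knockout is global, that the disease under study is fatty liver, and that heterozygotes were used because most homozygotes died as embryos. Nothing is said of ages or litters, or of which part of the gene was deleted (not given in the sources used here).

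Ammonia from amino acids is made into urea by hepatocytes around the portal vein. In their mitochondria Cps1 joins ammonia and bicarbonate to carbamoyl phosphate and Otc passes that group to ornithine to give citrulline. In the cytosol Ass1 couples citrulline to aspartate, Asl splits the product into arginine and fumarate, and Arg1 cuts arginine into urea and ornithine. Cps1 works only when bound to N-acetylglutamate, the product of Nags. Gls2, the liver-type glutaminase, frees ammonia from glutamine in the same mitochondria, Hal and Uroc1 take histidine through urocanate, and Sds turns serine into pyruvate and ammonia. Ammonia that escapes these cells is caught as glutamine by a rim of hepatocytes at the central vein, which express Glul. Glucagon and glucocorticoids are known to raise the transcripts of the pathway.

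Total counts ran from 17508221 to 24916239 per library. Levels are given as CPM, which are counts scaled to the same TMM-adjusted library total, and as the authors' RPKM where genes are compared per length. Midn itself stood at 60.4, 39.1 and 51.7 CPM in het-labelled livers 1 to 3, against 68.7, 39.8, 71.5, 41.7 and 29.3 CPM in wild-type livers 1 to 5, so its level did not separate the genotypes (log2 fold change 0.0043, SE 0.30; edgeR adjusted p = 0.994). Each direction below is therefore that of the libraries as labelled. Rpph1, an RNA without a poly(A) tail, stood at 2631, 3761 and 3385 CPM in het-labelled livers and at 2909.9, 8703, 2391, 7046 and 11941 CPM in wild-type livers. Wild-type libraries 2, 4 and 5 thus lay apart. Results of the members and of Midn that depend on them are given with and without them, and those of other genes only where stated. Midn depended on them too, with a mean of 70.1 CPM in wild-type livers 1 and 3 and 36.9 CPM in 2, 4 and 5. Its mean in het-labelled livers was 50.4 CPM. The split of the wild-type livers was drawn from Rpph1 levels in these same libraries. P-values against part of the wild-type livers, here and below, are therefore descriptive only. Against wild-type livers 1 and 3 alone Midn differed by −0.54 on the log2 scale (edgeR unadjusted p = 0.0201). With the Rpph1 share as a covariate it differed by −0.57 (edgeR unadjusted p = 0.000821). Its adjusted p was 0.104 or more in all 20 alternatives. Hepatocyte markers summed to 38933 to 68551 CPM in het-labelled and 34114 to 40816 CPM in wild-type livers. The 4 kidney markers summed to at most 0.0461 CPM in het-labelled and 0.0515 CPM in wild-type livers.

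Ass1 could not be measured from these tables. It had 5, 2 and 9 counts in the het-labelled livers, against 4, 13, 8, 10 and 2 counts in the wild-type livers, whereas Asl, which acts on the product of Ass1, had between 3085 and 8265 counts. The deposited annotation places a second gene, Gm5424, on top of Ass1 on the same strand (Ass1 at chromosome 2, 31470270 to 31520670, plus strand, mm10, and Gm5424 from 31470308 to 31520629), with 1552 exon bases for Gm5424 and 1631 for Ass1. Gm5424 had 0 counts in every liver. In GENCODE M21, on the same build, Gm5424 is a processed pseudogene of Ass1 on chromosome 10, 62071123 to 62072362. Its 1240 bases align to the Ass1 transcript with 6 differences, an identity of 99.5%, and the longest stretch without a difference is 398 bases. The stretch of 60 coding bases with the most differences is shown to make this likeness visible, bases 370 to 429 of the Ass1 coding sequence on the plus strand, spliced, from chr2:31486495-31488586, and the matching bases of Gm5424 from chr10:62071492-62071551, with the 2 differing bases in capitals:
Ass1: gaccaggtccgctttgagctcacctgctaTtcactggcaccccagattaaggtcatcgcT
Gm5424: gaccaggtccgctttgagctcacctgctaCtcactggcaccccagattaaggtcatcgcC

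A read that lies within a stretch without a difference matches both copies alike. In the deposited annotation a read placed on Ass1 can also fall on 2 gene names at 1 place. The counting mode for such reads (not given in the sources used here) and its part in the low count of Ass1 were not tested. Of the 358 genes in the table that share at least 95% of their span with another gene on the same strand, 333 (93.0%) had fewer than 20 counts over all livers, against 36.6% of all genes. Ass1, with 53 counts in all, was above that limit. The haemoglobin genes Hba-a1, Hba-a2, Hbb-bs and Hbb-bt, which also have close copies, were listed at 0 in every liver. The 358 genes were not matched to all genes by type or level. What these counts mean for Ass1 was not tested. Ass1 failed the filter on low counts, no comparison of it is made, and the other 9 members form the measured set.

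Per length, the measured members spanned a wide range of levels. The highest medians over the 8 livers were those of Arg1 at 837 RPKM (range 523 to 1452) and Cps1 at 685 RPKM (376 to 817), whose ranges overlapped. In the next tier Otc had a median of 212 RPKM, Sds 146 RPKM and Asl 133 RPKM, again with overlapping ranges. Uroc1 at 79.9 RPKM, Gls2 at 78.3 RPKM and Hal at 49.5 RPKM could not be ordered beyond their spread. Nags lay below all of these, between 10.6 and 21.4 RPKM, and its highest liver was under the lowest liver of Hal at 30.5 RPKM.

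The question the design puts to these genes is whether het-labelled livers differ from wild type. In edgeR's quasi-likelihood test 0 of the 9 measured members had a Benjamini-Hochberg adjusted p under 0.05, as did 0 of all 14438 genes tested (0%). At an unadjusted p under 0.05, 2 of the 9 were higher in het-labelled livers, Nags and Uroc1, against 10.3% of all genes, and 0 were lower, against 5.43% of all genes. For 0 of the 9 did every het-labelled liver lie above every wild-type liver, which held for 7.54% of all genes, and for 0 did every one lie below, which held for 2.32%. The measured members' median log2 fold change was −0.16 and their mean 0.036, which differ in sign, against a median of 0.0044 for all genes. DESeq2 called 176 genes but 0 members, and had the same 2 members at an unadjusted p under 0.05. Below, genes at an unadjusted p under 0.05 in edgeR are said to stand higher or lower before adjustment. In bulk liver RNA, fewer cells of a type and less RNA per cell cannot be told apart. The plot of the members' CPM by liver gives every value.

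**Figure D1:**
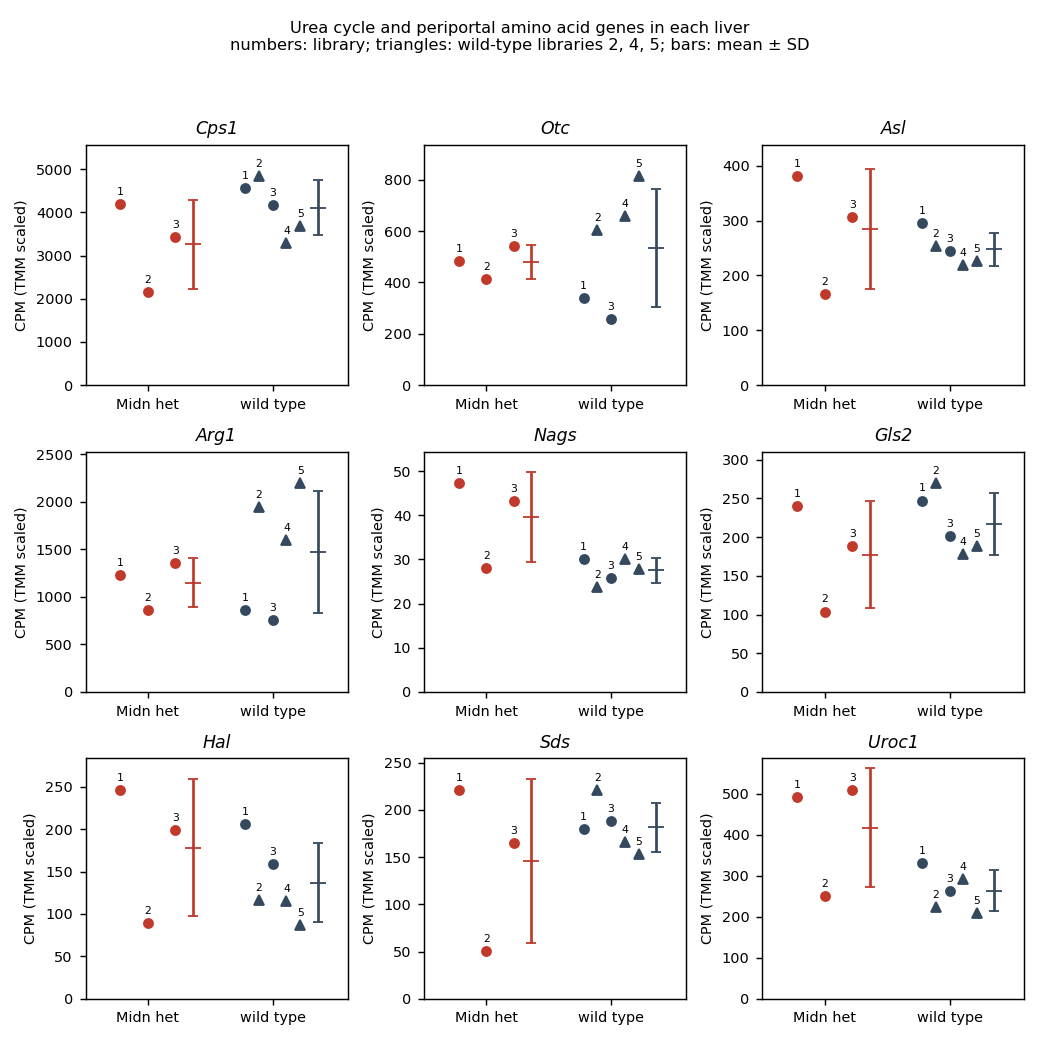
CPM after TMM scaling of the 9 measured members in each liver, with het-labelled livers (red) left of wild-type livers (dark) and the mean ± SD beside them. Digits are library numbers and triangles are wild-type libraries 2, 4 and 5. In every panel het-labelled liver 2 is the lowest of its group, and for Otc and Arg1 the wild-type livers fall apart into 1 and 3 below and 2, 4 and 5 above.

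Cps1, the entry enzyme of the cycle (chromosome 1, 67123027 to 67231267, plus strand), was not separated by genotype. It stood at 4201, 2165 and 3435 CPM in het-labelled livers 1 to 3, against 4563, 4842, 4179, 3290.2 and 3692 CPM in wild-type livers 1 to 5. Het-labelled liver 2 was the lowest of the 8, het-labelled liver 1 lay among the wild-type livers, and the groups overlapped. The means were 3267 ± 1028 CPM in het-labelled and 4113 ± 631 CPM in wild-type livers (SD, n = 3 and n = 5). On the log2 scale Cps1 differed by −0.33 (SE 0.27, 95% interval −0.93 to 0.27; adjusted p in edgeR 0.524), and by −0.10 without het-labelled liver 2.

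Otc, the citrulline-forming enzyme (chromosome X, 10252305 to 10321024, plus strand), had 484, 412 and 543 CPM in het-labelled livers, against 339.7, 604, 256, 657 and 814 CPM in wild-type livers. The het-labelled livers sat close together, between wild-type livers 1 and 3 below them and 2, 4 and 5 above them. Over all 8 livers Otc differed by −0.16 on the log2 scale (SE 0.36, 95% interval −0.98 to 0.67; adjusted p in edgeR 0.827). Against wild-type livers 2, 4 and 5 alone it was −0.58 (edgeR unadjusted p = 0.0132, adjusted p = 0.0596), and against wild-type livers 1 and 3 alone it was 0.62 (edgeR unadjusted p = 0.0209, adjusted p = 0.107). The direction for Otc thus turned with the wild-type livers it was set against.

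Arg1, the arginase of hepatocytes and also of some macrophages (chromosome 10, 24915207 to 24927470, minus strand), did the same. It had 1227, 865 and 1357 CPM in het-labelled livers, against 861, 1946, 757, 1601 and 2199 CPM in wild-type livers. Wild-type livers 2, 4 and 5 had the 3 highest values of the 8, wild-type liver 3 had the lowest, and the groups overlapped. Over all livers the log2 fold change of Arg1 was −0.36 (SE 0.39, 95% interval −1.23 to 0.51; adjusted p in edgeR 0.627). It was −0.79 against wild-type livers 2, 4 and 5 alone, where Arg1 was the 1 member called (edgeR adjusted p = 0.0474, a setting in which 2632 genes were called), and 0.44 against wild-type livers 1 and 3 alone (edgeR adjusted p = 0.253, with 21 genes called). The fit on all 8 livers called 0 of 14438 genes, so a call among 2632 does not set Arg1 apart from other genes. Within wild type, the mean of livers 2, 4 and 5 was 2.37 times that of livers 1 and 3 for Arg1 and 2.32 times for Otc, and between 0.580 and 0.977 times for the other 7 measured members. The same 3 livers had the high Rpph1 levels given above. With the Rpph1 share as a covariate the log2 fold changes were 0.48 for Arg1 and 0.66 for Otc. Which property of these libraries goes with both was not tested.

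Asl, which yields arginine and fumarate (chromosome 5, 130011258 to 130024381, minus strand), had 381, 166 and 306 CPM in het-labelled livers, against 295, 253, 244, 219 and 227 CPM in wild-type livers. Het-labelled livers 1 and 3 were above every wild-type liver and het-labelled liver 2 was below every one. Asl had a log2 fold change of 0.20 (SE 0.25, 95% interval −0.38 to 0.77; adjusted p in edgeR 0.681). This became −0.042 with library size alone, 0.48 without het-labelled liver 2 (edgeR unadjusted p = 0.0339, adjusted p = 0.171) and −0.064 without het-labelled liver 1. Wild-type livers were tight for Asl, with a coefficient of variation of 12.1%, while the het-labelled livers spread with 38.4%.

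Nags (chromosome 11, 102145513 to 102149528, plus strand), the least abundant of the measured members, had the smallest p among them. It stood at 47.3, 28.1 and 43.3 CPM in het-labelled livers, against 30.1, 23.9, 25.7, 30.1 and 27.8 CPM in wild-type livers. Het-labelled livers 1 and 3 were above all wild-type livers, and het-labelled liver 2 lay inside the wild-type range. The means were 39.6 ± 10.2 CPM in het-labelled and 27.5 ± 2.73 CPM in wild-type livers (SD, n = 3 and n = 5). The fitted log2 fold change was 0.53 (SE 0.18, 95% interval 0.11 to 0.94), which did not pass after adjustment (edgeR unadjusted p = 0.0178, adjusted p = 0.268). Without het-labelled liver 1 the unadjusted p was 0.0963, without het-labelled liver 3 it was 0.0696, and without het-labelled liver 2 it was 0.00124 (edgeR adjusted p = 0.0755). The unadjusted call of Nags also ended against wild-type livers 1 and 3 alone, where the log2 fold change was 0.44 (edgeR unadjusted p = 0.0934), with library size alone at 0.31 (edgeR unadjusted p = 0.119) and with the Rpph1 share as a covariate at 0.39 (edgeR unadjusted p = 0.104). Against wild-type livers 2, 4 and 5 alone it was 0.49 (edgeR unadjusted p = 0.0364).

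Uroc1, urocanate hydratase (chromosome 6, 90333289 to 90364548, plus strand), resembled Nags. It had 492, 251 and 510.2 CPM in het-labelled livers, against 331, 225, 263, 292 and 208 CPM in wild-type livers. Again het-labelled livers 1 and 3 were above every wild-type liver and het-labelled liver 2 was among them. The means were 418 ± 145 CPM in het-labelled and 264 ± 49.8 CPM in wild-type livers (SD, n = 3 and n = 5). Uroc1 had a log2 fold change of 0.66 (SE 0.26, 95% interval 0.071 to 1.25; edgeR unadjusted p = 0.0319, adjusted p = 0.286). It ran from 0.31 with the Rpph1 share as a covariate to 0.93 without het-labelled liver 2, and its unadjusted p was 0.1202 without het-labelled liver 1 and 0.137 without het-labelled liver 3. Without wild-type liver 2, 3 or 5 the edgeR unadjusted p of Uroc1 was 0.0808, 0.0552 and 0.0627. The log2 fold change was 0.42 (edgeR unadjusted p = 0.237) against wild-type livers 1 and 3 alone, 0.74 (edgeR unadjusted p = 0.0274) against 2, 4 and 5 alone and 0.42 (edgeR unadjusted p = 0.140) with library size alone. Hepatocyte markers were also higher in het-labelled livers, with 7 of 7 tested above 0 and a median log2 fold change of 0.56. Of these, 4 stood higher before adjustment, against 10.3% of all genes. Alb had 53252, 29292 and 44074 CPM in het-labelled livers and 31115, 29351, 27703, 29538 and 25539.7 CPM in wild-type livers. The part of the hepatocyte markers in the levels of Nags and Uroc1 was not tested.

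Hal, histidine ammonia-lyase, which makes the urocanate that Uroc1 uses (chromosome 10, 93488768 to 93516761, plus strand), had 246, 89.0 and 199 CPM in het-labelled livers, against 206, 116, 159, 115 and 86.8 CPM in wild-type livers. Values were mixed across genotypes, with het-labelled liver 1 the highest of the 8 and wild-type liver 5 the lowest. For Hal the log2 fold change came to 0.38 (SE 0.36, 95% interval −0.43 to 1.19; adjusted p in edgeR 0.581), 0.70 against wild-type livers 2, 4 and 5 alone and −0.10 against wild-type livers 1 and 3 alone. The next steps of histidine breakdown did not pass either: Amdhd1, imidazolonepropionase, differed by 0.033 and Ftcd, formiminotransferase cyclodeaminase, by 0.30 (edgeR adjusted p = 0.939 and 0.527). Both were named after their values were seen.

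Start-site sequences are shown for Nags, Uroc1 and Hal, because these were the measured members with the largest positive log2 fold changes. RefSeq windows on GRCm38.p6, from 250 bases before to 50 bases after the start, were found for 5 of the 10 members, Ass1, Hal, Nags, Otc and Uroc1. The windows are Nags at chr11:102145263-102145562, Uroc1 at chr6:90333039-90333338 and Hal at chr10:93488518-93488817, all on the plus strand. Capitals mark the motif matches described after them:
Nags: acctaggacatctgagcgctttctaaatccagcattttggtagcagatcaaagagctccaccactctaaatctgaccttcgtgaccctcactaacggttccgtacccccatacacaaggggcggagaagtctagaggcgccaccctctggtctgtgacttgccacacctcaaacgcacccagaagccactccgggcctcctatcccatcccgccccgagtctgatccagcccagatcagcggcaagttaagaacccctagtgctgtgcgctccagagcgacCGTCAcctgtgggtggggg
Uroc1: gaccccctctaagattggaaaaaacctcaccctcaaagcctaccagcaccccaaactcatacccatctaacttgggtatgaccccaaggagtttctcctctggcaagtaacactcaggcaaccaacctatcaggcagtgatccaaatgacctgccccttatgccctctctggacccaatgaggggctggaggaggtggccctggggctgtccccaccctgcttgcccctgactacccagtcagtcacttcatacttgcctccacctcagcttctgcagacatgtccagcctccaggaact
Hal: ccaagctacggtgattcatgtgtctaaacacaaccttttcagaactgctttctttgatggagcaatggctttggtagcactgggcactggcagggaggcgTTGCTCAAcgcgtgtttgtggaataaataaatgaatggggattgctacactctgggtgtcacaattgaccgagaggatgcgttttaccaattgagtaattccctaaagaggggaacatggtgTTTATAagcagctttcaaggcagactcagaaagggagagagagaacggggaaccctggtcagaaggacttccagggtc

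The motifs searched, on both strands, were TGACGTCA and its part TGACG (the long and short site of cyclic AMP response factors), TTGCNNAA (a site of C/EBP factors), CAAAGTCCA (a site of HNF4), TGTTCT (a short site of the glucocorticoid receptor) and the TATA box letters TATAAA. The shorter cyclic AMP motif lies within TGACGTCA, so a match to the longer motif is also one to the shorter. Hal held TTGCNNAA at position 101 to 108 of its window, found in 10.8% of the 32851 windows in the RefSeq table, and TATAAA on the minus strand at 223 to 228, found in 13.6%. Nags held TGACG on the minus strand at 282 to 286, after its start, found in 20.8% of windows. Uroc1, Otc and Ass1 held 0 of the 6 motifs within these letters. In all windows TGTTCT was found in 19.0%, TGACGTCA in 1.79% and CAAAGTCCA in 0.475%. A match is a description of letters, and the lack of one says only that these letters are not in that window.

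Sds, serine dehydratase (chromosome 5, 120476547 to 120483905, plus strand), had 221.5, 50.9 and 165.5 CPM in het-labelled livers, against 179.8, 221, 188, 166 and 153 CPM in wild-type livers. Het-labelled liver 2 stood alone, at 28.1% of the wild-type mean, while het-labelled livers 1 and 3 lay at the top of the wild-type livers and among them. Sds differed by −0.31 on the log2 scale (SE 0.39, 95% interval −1.19 to 0.56; adjusted p in edgeR 0.671), which turned to 0.10 without het-labelled liver 2. Gls2 (chromosome 10, 128194635 to 128210004, plus strand) had 240.2, 104 and 189 CPM in het-labelled livers, against 247, 270.2, 202, 178 and 189 CPM in wild-type livers, with het-labelled liver 2 again the lowest of the 8 and the other 2 inside the wild-type range. Gls2 differed by −0.29 on that scale (SE 0.27, 95% interval −0.91 to 0.33; adjusted p in edgeR 0.582) and −0.012 without het-labelled liver 2. Gls2 shares 95 bases with Spryd4 and Sds shares 13 bases with Plbd2, each on the opposite strand, and whether counting used strand is unknown (not given in the sources used here).

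**Figure D2:**
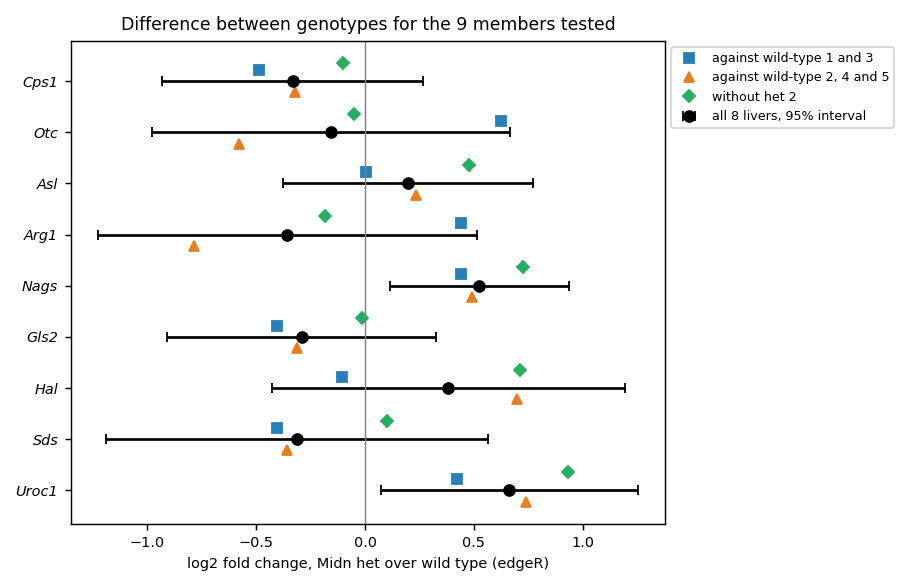
Log2 fold change of each measured member, het-labelled over wild type, from edgeR on all 8 livers with its 95% interval (black), against wild-type livers 1 and 3 alone (blue squares), against 2, 4 and 5 alone (orange triangles) and without het-labelled liver 2 (green diamonds). The intervals of Nags and Uroc1 leave out 0 before adjustment, and the squares and triangles of Otc and Arg1 lie on opposite sides of 0.

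Het-labelled liver 2 stood below het-labelled livers 1 and 3 for all 9 measured members, and was the lowest of the 8 livers for 4 of them, Cps1, Asl, Gls2 and Sds. Its level relative to the wild-type mean differed by gene, from 28.1% of that mean for Sds and 47.9% for Gls2 to 95.1% for Uroc1 and 102% for Nags. In the same liver the 6 lipid-associated macrophage markers, all detected, summed to 655 CPM and the 7 bile duct markers to 769.9 CPM, the highest sums among the het-labelled livers. The lowest sums among het-labelled livers were 236 and 155 CPM. Wild-type livers spanned 622 to 884 CPM for the macrophage markers and 421 to 948 CPM for the bile duct markers, so het-labelled liver 2 lay within wild type for both. Trem2, a lipid receptor of these cells, had 6.31, 26.1 and 7.96 CPM in het-labelled livers and 19.6, 27.5, 19.1, 22.6 and 30.6 CPM in wild-type livers. Their part in the low member levels of het-labelled liver 2 was not tested.

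The measured members did not vary as 1 block across the livers. Cps1 and Gls2, whose products act side by side in the mitochondria, followed each other most closely. After each gene's log2 CPM was centred on its mean over the 8 livers, they differed by a root mean square of 0.0886. Among all 14437 other genes tested Gls2 was the nearest to Cps1 by this measure and Cps1 the nearest to Gls2, where the median distance from Cps1 was 0.501. The RPKM ratio of Cps1 to Gls2 was 7.83, 9.32 and 8.15 in het-labelled livers and 8.25, 8.02, 9.28, 8.27 and 8.74 in wild-type livers, a spread of 1.19-fold, while Cps1 itself spread 2.24-fold and Gls2 2.60-fold in CPM. This describes 8 libraries of 1 protocol, and the likeness was not tested.

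Otc and Arg1 were the second closest among the 36 possible pairs of measured members, with a root mean square difference of 0.174, and Nags and Uroc1 were the next with 0.188. Neither was its partner's nearest gene: Arg1 ranked 274 among the 14437 genes by distance from Otc and Otc ranked 36 from Arg1, while Uroc1 ranked 814 from Nags and Nags 141 from Uroc1. The most distant pairs were Arg1 and Hal at 0.895 and Otc and Hal at 0.885. The RPKM ratio of Otc to Arg1 was 0.251, 0.303 and 0.255 in het-labelled livers and 0.251, 0.198, 0.215, 0.262 and 0.236 in wild-type livers, and the groups overlapped. The RPKM ratio of Cps1 to Otc, which make and use carbamoyl phosphate, was 3.62, 2.19 and 2.64 in het-labelled livers and 5.60, 3.34, 6.81, 2.09 and 1.89 in wild-type livers. Wild-type livers 1 and 3 had the highest ratios and wild-type livers 4 and 5 the lowest.

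**Figure D3:**
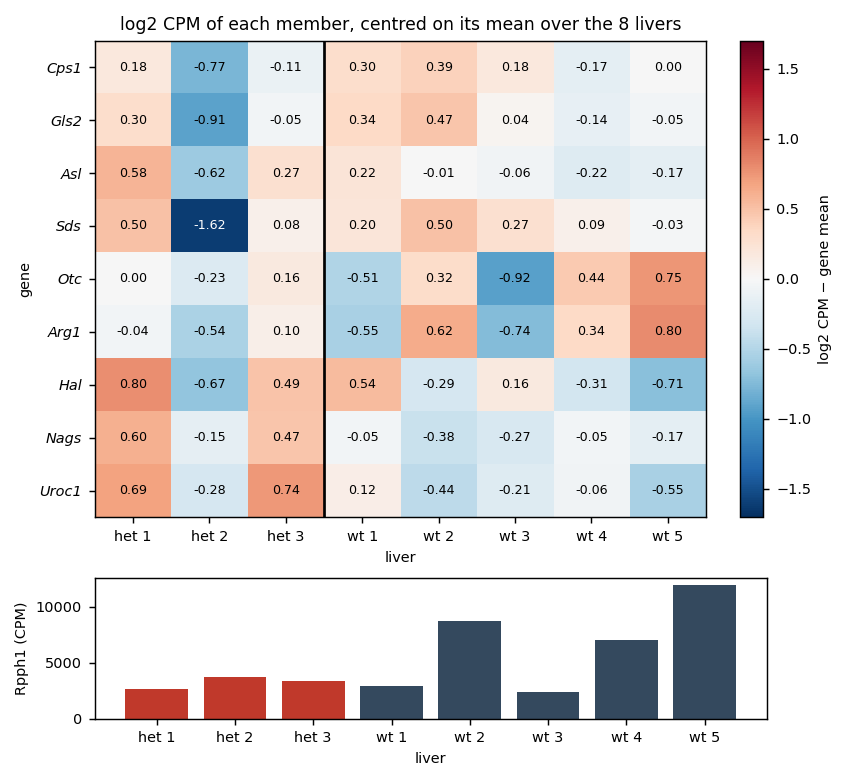
Upper panel, log2 CPM of each measured member minus its mean over the 8 livers, in a colour scale (red above, blue below) with the value in each cell, het-labelled livers left of the line. Lower panel, Rpph1 level in CPM for the same libraries in the same order. The Cps1 and Gls2 rows are nearly alike, Sds in het-labelled liver 2 is the lowest cell at −1.62, and the Otc and Arg1 rows are high where the Rpph1 bars are high.

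The genes nearest to the mean of Cps1, Otc, Asl and Arg1 over the 8 livers were Fbp1, the gluconeogenic fructose bisphosphatase (root mean square difference 0.102), the cell cycle inhibitor gene Cdkn2d (0.110), the membrane protein gene Tmem18 (0.110), the transcription factor gene Btaf1 (0.112) and the asparaginase gene Aspg (0.113), against a median of 0.460 for all 13619 genes compared. Nearest to the mean of Gls2, Hal, Sds and Uroc1 were Apol9b (0.129), Lysmd1 (0.150), the antiplasmin gene Serpinf2 (0.172), the insulin-degrading enzyme gene Ide (0.180) and Amdhd1 (0.182). Amdhd1 follows Hal and Uroc1 in histidine breakdown.

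Enzymes that make and split glutamine stood apart from each other. Glul, glutamine synthetase of the cells next to the central vein, had 1611, 1399 and 1969.9 CPM in het-labelled livers, against 627, 285, 240.5, 731 and 734 CPM in wild-type livers, and every het-labelled liver was above every wild-type liver. Glul had a log2 fold change of 1.66 (SE 0.39; edgeR unadjusted p = 0.00210, adjusted p = 0.259; DESeq2 adjusted p = 0.0141). The RPKM ratio of Gls2 to Glul was 0.168, 0.0838 and 0.108 in het-labelled livers and 0.445, 1.07, 0.946, 0.274 and 0.290 in wild-type livers, so that the groups did not overlap. The ratio was chosen with the levels of Glul known and rests on them, so no test is given. A list of 5 genes for enzymes and transporters of ammonia capture around the central vein had a median log2 fold change of 1.39. Of these 5 genes, 4 stood higher before adjustment, against the 10.3% of all genes given above, and 0 stood lower. Besides Glul they were Rhbg, an ammonium transporter (log2 fold change 1.39), Slc1a2, a glutamate transporter (1.497), and Oat, ornithine aminotransferase (1.34), which had 710.5, 380.4 and 1034 CPM in het-labelled and 243, 339, 167, 225 and 430.3 CPM in wild-type livers. Oat in het-labelled liver 2 lay within the wild-type range. DESeq2 called Rhbg and Slc1a2 (adjusted p = 0.0177 and 0.0267), and edgeR gave an adjusted p of 0.259 to all 4. The fifth gene of the list, the neutral amino acid transporter Slc1a4, differed by −0.44 and did not pass.

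Arg2, the mitochondrial arginase found mostly outside hepatocytes, had 13, 22 and 19 counts in het-labelled and 27, 41, 28, 37 and 59 counts in wild-type livers (log2 fold change −1.14, SE 0.47; edgeR unadjusted p = 0.0381, adjusted p = 0.298). Arg2 averaged 0.896 CPM in het-labelled livers, 1.12 CPM in wild-type livers 1 and 3 and 2.57 CPM in 2, 4 and 5. Its log2 fold change ran from −1.56 to −0.23 over 20 alternatives, with an unadjusted p under 0.05 in 12. Bile duct markers, of cells that are not hepatocytes, had a median of −1.05 with 7 of 7 below 0 and 0 lower before adjustment. Their sums are given above and 0 of them were at 0. Markers of some other cells were lower as well. All 6 T and NK cell markers tested had a log2 fold change below 0 (median −1.10, 2 lower before adjustment). So had all 6 lipid-associated macrophage markers (−0.66, 1 before adjustment) and all 4 B cell markers (−0.65, 1 before adjustment). Of all genes 5.43% were lower before adjustment. Endothelial markers went the other way, with 5 of 5 above 0 (median 0.31, 1 higher before adjustment, against 10.3% of all genes). Stellate cell markers were split, 3 above 0 and 3 below (1 higher before adjustment). Kupffer cell markers had 2 above and 4 below, and neutrophil markers 1 above and 2 below. The 1 red cell marker tested was higher before adjustment (0.88). T and NK cell markers summed to 5.05 to 9.47 CPM in het-labelled and 4.89 to 18.8 CPM in wild-type livers, and B cell markers to 2.26 to 4.79 CPM in het-labelled and 5.00 to 8.33 CPM in wild-type livers. The part of these markers in the levels of Arg2 was not tested.

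**Figure D4:**
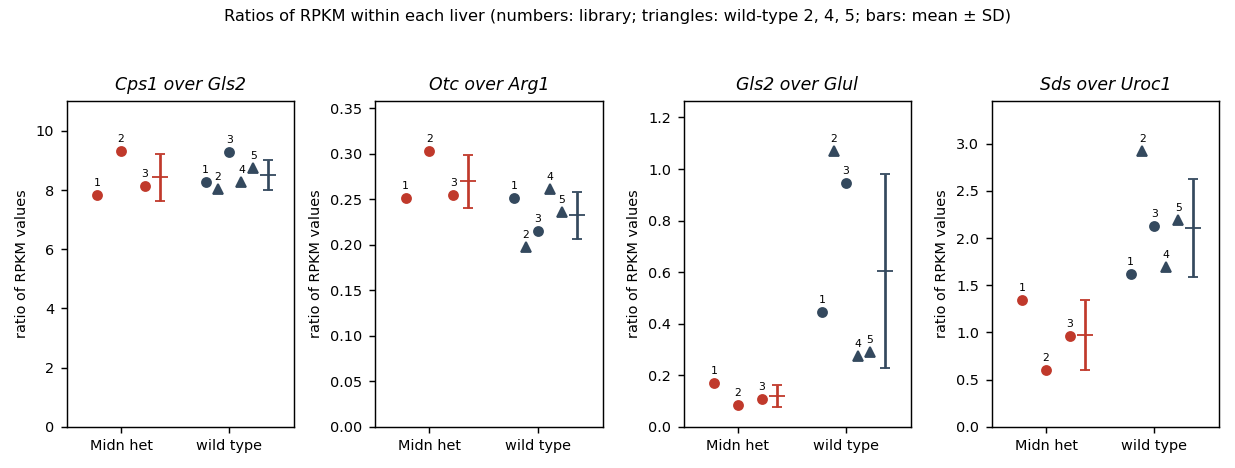
Ratios of RPKM values within each liver, het-labelled livers (red) left of wild-type livers (dark), with the mean ± SD beside them, digits for library numbers and triangles for wild-type libraries 2, 4 and 5. Cps1 over Gls2 and Otc over Arg1 overlap between genotypes, and every het-labelled liver is below every wild-type liver for Gls2 over Glul and for Sds over Uroc1.

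Relative to Uroc1, Sds was lower in het-labelled livers. The RPKM ratio of Sds to Uroc1 was 1.34, 0.604 and 0.965 in het-labelled livers, against 1.62, 2.92, 2.13, 1.69 and 2.19 in wild-type livers, with a mean of 0.970 ± 0.368 in het-labelled and 2.11 ± 0.521 in wild-type livers (SD, n = 3 and n = 5). The groups did not overlap, although neither gene alone separated them. The pair was chosen after the values were seen, so no test is given.

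Of 12 genes that supply the urea cycle, 4 stood higher before adjustment in het-labelled livers and 1 lower, against 10.3% and 5.43% of all genes, with a median of 0.031. The lower one was Arg2. Aqp9, a channel for glycerol and urea, had 552, 420.3 and 538 CPM in het-labelled livers, against 318, 245, 255, 336 and 277 CPM in wild-type livers, with no overlap (log2 fold change 0.82, SE 0.18; edgeR adjusted p = 0.259; DESeq2 adjusted p = 0.00665). Car5a, the mitochondrial carbonic anhydrase that gives Cps1 its bicarbonate, had 71.8, 33.7 and 58.5 CPM in het-labelled and 28.7, 17.6, 18.0, 34.1 and 29.6 CPM in wild-type livers, where het-labelled liver 2 lay just inside the wild-type range (log2 fold change 1.09; edgeR adjusted p = 0.259). Got2, mitochondrial aspartate aminotransferase, and Slc25a13, the carrier that brings aspartate out to Ass1, also stood higher, with log2 fold changes of 0.62 and 0.45. Slc25a15, the ornithine and citrulline carrier, had 312 ± 62.8 CPM in het-labelled and 314 ± 58.1 CPM in wild-type livers (SD, n = 3 and n = 5).

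Of 18 other genes of amino acid breakdown and uptake tested, 4 stood higher before adjustment and 2 lower, against 10.3% and 5.43% of all genes, with a median of 0.29. Among those higher were Prodh, proline dehydrogenase, at 198 ± 48.6 CPM in het-labelled and 105 ± 27.9 CPM in wild-type livers (SD, n = 3 and n = 5), Bhmt, betaine-homocysteine methyltransferase (log2 fold change 0.90), and the related Prodh2 (0.61). Of 8 other genes of arginine and ornithine use, 2 stood higher before adjustment, the creatine-forming Gamt (0.74) and ornithine decarboxylase Odc1 (0.43), and 2 lower, the antizyme inhibitor gene Azin2 (−0.99) and the amidinotransferase gene Gatm (−0.46), against the same shares of all genes. After adjustment 0 of these passed in edgeR (adjusted p between 0.259 and 0.317).

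Other genes of periportal hepatocytes were found on both sides. Of 14 tested, 5 stood higher before adjustment and 3 lower, against 10.3% and 5.43% of all genes, with a median of 0.29. On the higher side were Sult5a1, a sulfotransferase (log2 fold change 2.87), Pigr, the immunoglobulin transporter (0.78), Igfals, which binds insulin-like growth factors in blood (0.99), and Cyp2f2, a cytochrome P450 (1.04), and on the lower side Hsd17b6, a steroid dehydrogenase (−1.15), Cyp17a1, a cytochrome P450 of steroid synthesis (−1.25), and Ctsc, a lysosomal protease (−0.63). Cyp17a1 and Ctsc were named after their values were seen. Their means in het-labelled livers were near those of wild-type livers 1 and 3, at 9.94 and 10.8 CPM for Cyp17a1 and 110.9 and 121.8 CPM for Ctsc. In wild-type livers 2, 4 and 5 the means were 32.4 CPM for Cyp17a1 and 204.7 CPM for Ctsc. Hsd17b6 averaged 118 CPM in het-labelled livers, 195 CPM in wild-type livers 1 and 3 and 307 CPM in 2, 4 and 5. DESeq2 called Sult5a1 and Hsd17b6 (adjusted p = 0.00647 and 0.0267). Sult5a1 rested on low counts in wild type, with 357, 85 and 268 counts in het-labelled and 25, 13, 15, 78 and 19 counts in wild-type livers. In CPM het-labelled liver 2 (4.57) was barely above wild-type liver 4 (4.28). Pck1, the gluconeogenic enzyme that glucagon induces, had 2471, 1175 and 1994 CPM in het-labelled and 2242, 1129.9, 2315, 979 and 926 CPM in wild-type livers and did not pass (edgeR adjusted p = 0.685). Its mean was 1880 CPM in het-labelled livers, 2279 CPM in wild-type livers 1 and 3 and 1011 CPM in 2, 4 and 5. The log2 fold change of Pck1 ran from −0.41 to 0.84 over 20 alternatives, with an unadjusted p under 0.05 in 1. Of 11 other pericentral genes 9 stood higher before adjustment and 0 lower, against 10.3% and 5.43% of all genes, with a median of 1.12, among them the cytochrome P450 genes Cyp2e1 and Cyp1a2, the dicarboxylate transporter Slc13a3 and Gulo, an enzyme of vitamin C synthesis (log2 fold changes 1.59, 1.84, 1.12 and 0.74). The hepatocyte markers given above were also higher, with a median of 0.56, and their part in the pericentral genes and in the regulators was not tested. Hnf4a is counted both among those markers and among the regulators below.

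Of 13 genes that regulate these enzymes, 6 stood higher before adjustment and 0 lower, against 10.3% and 5.43% of all genes, with a median of 0.41. They included the glucagon receptor Gcgr at 152, 114 and 148 CPM in het-labelled livers, against 121, 81.8, 96.3, 119 and 103 CPM in wild-type livers, where 1 het-labelled liver lay within the wild-type range (log2 fold change 0.41; edgeR unadjusted p = 0.0430, adjusted p = 0.306). Gcgr kept an unadjusted p under 0.05 in only 8 of 20 alternatives, and Hnf4a in 11. The hepatocyte factor Hnf4a differed by 0.52, Cebpb by 0.56, Foxo1 by 0.72 and Creb3l3 by 0.60, with adjusted p in edgeR between 0.259 and 0.279. Cebpa, the factor known for driving Cps1 and Arg1, had 326 ± 66.7 CPM in het-labelled and 311 ± 90.7 CPM in wild-type livers (SD, n = 3 and n = 5), a log2 fold change of 0.068. Cebpa averaged 217 CPM in wild-type livers 1 and 3 and 374 CPM in 2, 4 and 5. Its log2 fold change ran from −0.25 to 0.52 over 20 alternatives.

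**Figure D5:**
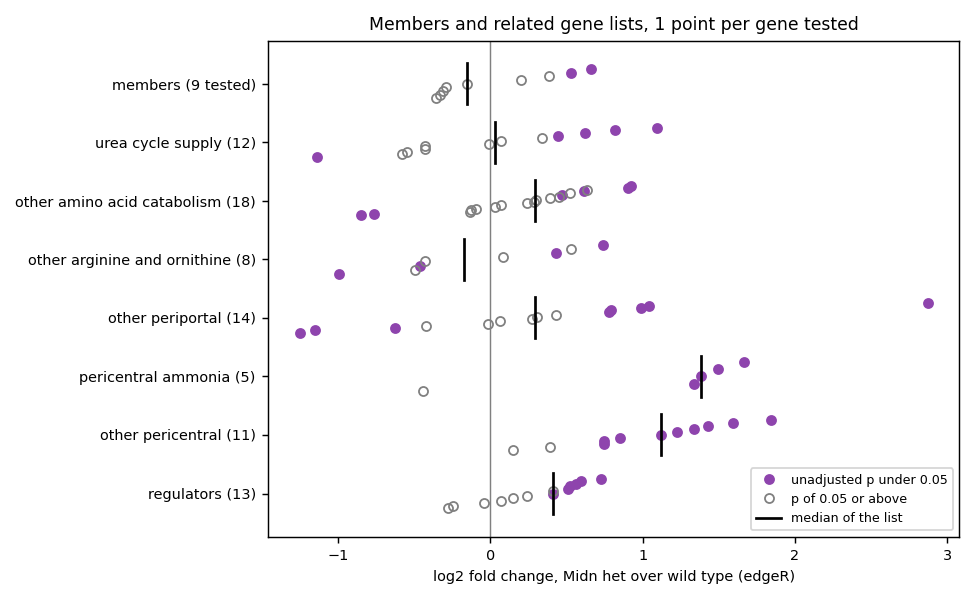
Log2 fold change, het-labelled over wild type (edgeR), of each tested gene in the members and in 7 related lists, 1 point per gene, filled where the unadjusted p was under 0.05, with a black bar at the list's median. The members' median is −0.16 and the 2 filled members are Nags and Uroc1, while the medians of the pericentral lists are 1.39 and 1.12.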

How the data were processed

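RNA of 8 livers was sequenced from KAPA mRNA HyperPrep libraries, per the labels. The authors deposited raw counts per gene and RPKM values, with exon lengths, per the file headers. The submitters' processing notes name mm10, HTSeq, STAR and bcl2fastq 2.18.0.12. Further versions, annotation, counting mode and strandedness: not given in the sources used here. Of the columns per sample, 0 went unused.

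Groups follow the genotype label. Accession order gave the replicate numbers, which pair nothing. Libraries of 1 group differed beyond sampling noise (chi-square per degree of freedom of 22.9 or more), so each counts once. Nothing states separate cohorts, so p-values cover only the spread among these livers. Precision is limited by the number of livers rather than by the total counts of 17508221 to 24916239.

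Genes were kept by filterByExpr (minimum count 10, total 15), scaled by TMM, and compared by the quasi-likelihood test of edgeR, robust and two-sided, with Benjamini-Hochberg adjustment at 0.05 over all 14438 genes. SE is the log2 fold change divided by the root of F. Likeness used log2 CPM (prior count 2). Genes named are the members, Midn, up to 4 genes with the smallest p of each related list and 11 others, and any further gene is said to be chosen later or serves as a marker. A gene that this rule names is not reported here. Members and lists were chosen with earlier results of these data known. Alternatives were DESeq2, limma-voom, library size alone, RLE scaling, other filters, plain instead of robust estimation, limma on log2 of the authors' RPKM plus 0.1 or 1, the Rpph1 share as a covariate, a threshold of 0.10, and libraries left out. The procedure was tested on simulated data. The Ass1 transcript was aligned with Biopython. Promoter windows are RefSeq's (GRCm38.p6) and transcripts GENCODE M21's. Versions were DESeq2 1.42.0, edgeR 4.0.16 and limma 3.58.1 in R 4.3.3, and Biopython 1.88 and matplotlib 3.10.9 in Python 3.11.15.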

Additional observations from a re-analysis of the deposited data

How the results depend on the processing

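No paired analysis was possible because the labels give no replicate numbers shared between genotypes. Over 20 alternatives, Cps1 and Gls2 stayed below 0 and Nags and Uroc1 above 0, and Nags had an unadjusted p under 0.05 in 15 of them and Uroc1 in 10. Of 34 other genes named by rule, Midn apart, 16 had an unadjusted p under 0.05 in all 20 alternatives. Among the rest it was under 0.05 in 8 for Gcgr, 11 for Hnf4a and for Prodh2, and 13 for Slc25a13 and for Gatm. Members at an unadjusted p under 0.05 on the higher side numbered 0 with library size alone and with the Rpph1 share as a covariate, 1 in both RPKM fits (Nags) and 1 without wild-type libraries 2, 4 and 5, which was Otc, while Nags and Uroc1 did not pass there. On the lower side there were 2 without wild-type libraries 1 and 3, where 1 member, Arg1, was called. With 1 library left out the members higher numbered 0 to 3 (0 without het-labelled liver 1 or 3, 1 without wild-type liver 2, 3 or 5, and 3 without het-labelled liver 2), lower 0, and called 0, and their median ran from −0.35 to 0.047.

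Among all genes, DESeq2 called 176, the fit without wild-type libraries 1 and 3 called 2632 and that without 2, 4 and 5 called 21. At an unadjusted p under 0.05 the genes higher numbered 427 with library size alone (where the median of all genes was −0.18), 2455 with the Rpph1 covariate, 2622 without wild-type libraries 1 and 3, and 2449 without 2, 4 and 5. The genes lower numbered 1198 with library size alone, 1373 in DESeq2, 2606 without wild-type libraries 1 and 3 and 2181 without 2, 4 and 5. With 1 library left out, 573 to 1969 were higher, 221 to 1633 lower and 0 called. Counts beyond 1.5 times came without het-labelled liver 1 (573 higher, 221 lower), 3 (631 higher, 246 lower) and 2 (1633 lower) and without wild-type liver 2 (825 higher, 501 lower). The split was 1487 higher and 784 lower as reported, and 1333 higher and 1373 lower in DESeq2. Ass1 had too few counts for a comparison, and the cause was not tested.

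Directions turned as follows, and the cause was not tested. With the Rpph1 covariate the log2 fold change was 0.48 for Arg1, 0.66 for Otc, −0.072 for Asl, −0.27 for Hal, −0.41 for Pck1, 0.20 for Slc25a15 and −0.57 for Midn. Without wild-type libraries 2, 4 and 5 it was 0.44 for Arg1, 0.62 for Otc, −0.10 for Hal, −0.35 for Pck1, 0.21 for Slc25a15 and −0.54 for Midn. Without 1 and 3 it was −0.25 for Cebpa. With library size alone it was −0.042 for Asl, −0.096 for Cebpa and −0.26 for Midn, which was −0.041 with RLE, −0.032 in DESeq2 and −0.015 at a mean of 1 CPM. Slc25a15 was 0.0064 with no filter. With 1 library left out, Otc ran from −0.38 to 0.047, Asl from −0.064 to 0.48, Sds from −0.74 to 0.099, Cebpa from −0.11 to 0.23, Slc25a15 from −0.14 to 0.15 and Midn from −0.14 to 0.17.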
